A study of Brachypodium distachyon with 12 samples.

Results

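Aquaporins are the membrane channels through which water and some small uncharged solutes cross plant membranes. The genes described here are those whose description in the deposited table contains the word aquaporin or the phrase major intrinsic protein, the older name of the same protein family. The rule found 33 of 39068 genes, and all 33 descriptions held both expressions. By best-match name they comprised 11 plasma membrane intrinsic proteins (PIP, 3 of type PIP1 and 8 of type PIP2), 10 tonoplast intrinsic proteins (TIP), 10 nodulin 26-like intrinsic proteins (NIP) and 2 small basic intrinsic proteins (SIP). The best match was a rice protein for 23 genes and a maize protein for 10 genes, with 28 distinct names among them, so each name rests on likeness of sequence, and no activity was tested here.

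Expression was measured by RNA sequencing in whole roots and in shoots of Brachypodium distachyon Bd21-3 plants, a temperate wild grass related to wheat and barley, kept in hydroponic culture. All plants were wild type, and the labels name no treatment. There were 4 groups of 3 libraries, namely week 4 roots, week 2 roots, week 4 shoots and week 2 shoots, and the labels state that the replicates came from different plants. Total counts lay between 17261299 and 24186744 per library. Counting error weighs most on the rarest genes, and spread between the 3 libraries of a group limits precision for abundant genes too.

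PIPs sit in the plasma membrane and are the main route by which water passes from cell to cell. In maize, PIP1 proteins reach the plasma membrane when paired with PIP2 proteins, which form active water channels by themselves. TIPs line the vacuole and let water and, in several plants, small nitrogen compounds pass between vacuole and cytosol. NIPs carry other small solutes, including silicic acid and boric acid in rice. SIPs were located to the endoplasmic reticulum in Arabidopsis.

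Levels are given as RPKM, the counts per kilobase of the deposited gene length per 1000000 counts after trimmed-mean (TMM) scaling of the libraries, so that levels can be compared between genes and between libraries. Differences were tested with the edgeR quasi-likelihood test over 26463 genes that passed a low-count filter, and a gene was called at a Benjamini-Hochberg adjusted p under 0.05. Of the 33 aquaporin genes, 29 passed the filter. The other 4 were TIP3-2 (BdiBd21-3.5G0212600) with 4 counts in all 12 libraries, NIP1-4 (BdiBd21-3.1G0518500) with 40 counts, all of them in shoots, and NIP3-2 genes BdiBd21-3.3G0149300 with 6 counts and BdiBd21-3.4G0044100 with 28 counts that were all in roots.

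Organ markers were read first. The summed level of 33 chlorophyll-binding and Rubisco small subunit genes was 9816 to 11540 RPKM in week 4 roots and 1841 to 4020 RPKM in week 2 roots, against 91170 to 120500 RPKM in week 4 shoots and 90840 to 115400 RPKM in week 2 shoots. The summed level of 11 root cap genes was 462.9 to 606 RPKM over the 6 root libraries and 0.651 to 2.11 RPKM over the 6 shoot libraries. The markers followed the organ labels. Of the green tissue genes 2 had no count in roots, and their summed root level was higher at week 4 than at week 2. In week 4 shoots replicate 1 lay between the week 2 shoot libraries and the other week 4 replicates for 8 of 29 tested aquaporins (27.6%), close to 28.1% of all tested genes.

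The summed level of all aquaporins was higher in roots than in shoots. It averaged 4328 ± 409 RPKM in week 4 roots and 3879 ± 529.6 RPKM in week 2 roots, against 2052 ± 264 RPKM in week 4 shoots and 2148 ± 92.6 RPKM in week 2 shoots (SD, n = 3 each). No root library overlapped a shoot library in this sum. Aquaporins took 0.661% to 0.921% of all counts in root libraries and 0.234% to 0.323% in shoot libraries. These are whole organs, so fewer cells of a type and less RNA per cell cannot be told apart.

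The make-up of the sum differed between organs. PIPs held 45.6% ± 1.57 of it in week 4 roots and 46.5% ± 3.58 in roots of week 2, against 75.3% ± 0.694 in week 4 shoots and 63.8% ± 2.17 in week 2 shoots. The TIP share was 45.0% ± 0.809 in week 4 roots and 46.1% ± 2.55 in roots of week 2, against 20.3% ± 0.682 in week 4 shoots and 29.7% ± 2.1 in week 2 shoots. NIPs held 7.86% ± 0.771, 5.52% ± 1.25, 2.54% ± 0.73 and 4.32% ± 0.325 in week 4 roots, week 2 roots, week 4 shoots and week 2 shoots. PIP1, TIP, NIP and SIP sums were all higher in roots. The PIP2 sum went the other way, with 930.4 ± 97.2 RPKM in week 4 roots against 1300.0 ± 188 RPKM in week 4 shoots, and 869 ± 89.0 RPKM in week 2 roots against 1064 ± 17.5 RPKM in week 2 shoots, although the week 2 order turned round when libraries were scaled by plain totals (985 RPKM in roots, 963 RPKM in shoots). Most of the PIP2 sum in shoots was the PIP2-7 gene BdiBd21-3.4G0509600, with 1185 RPKM at week 4 and 841 RPKM at week 2. In roots that gene had 45.3 and 10.2 RPKM. Of 8 PIP2 genes 5 were called higher in roots at each week, where 32.4% and 28.4% of all tested genes were at week 4 and week 2.

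**Figure D1:**
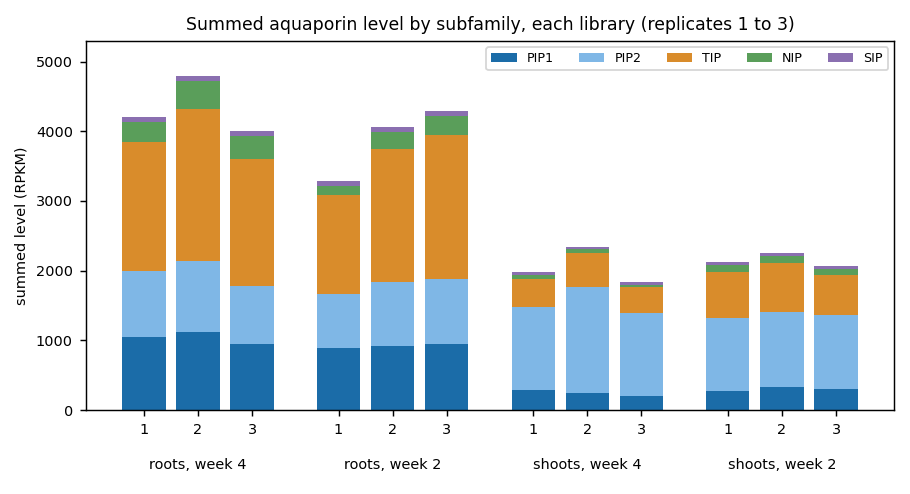
Summed level of the aquaporin genes in each library, in RPKM, stacked by subfamily, with 3 libraries a group. Root libraries reach between 3282 and 4786 RPKM and shoot libraries between 1837 and 2346 RPKM, and PIP2 is the tallest segment of each shoot bar.

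The leading gene differed between roots and shoots. In roots 10 genes made up 93.7% of the summed level at week 4 and 94.0% at week 2, led by TIP1-1 with 24.6% ± 0.542 at week 4 and 25.2% ± 1.32 at week 2. In shoots a PIP2-7 gene alone held 57.7% ± 3.65 at week 4 and 39.2% ± 2.02 at week 2, while it held 1.06% ± 0.363 in week 4 roots and 0.256% ± 0.105 in week 2 roots. TIP1-1 was the next most abundant aquaporin in shoots, with 10.8% ± 1.12 at week 4 and 12.6% ± 0.884 at week 2.

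**Figure D2:**
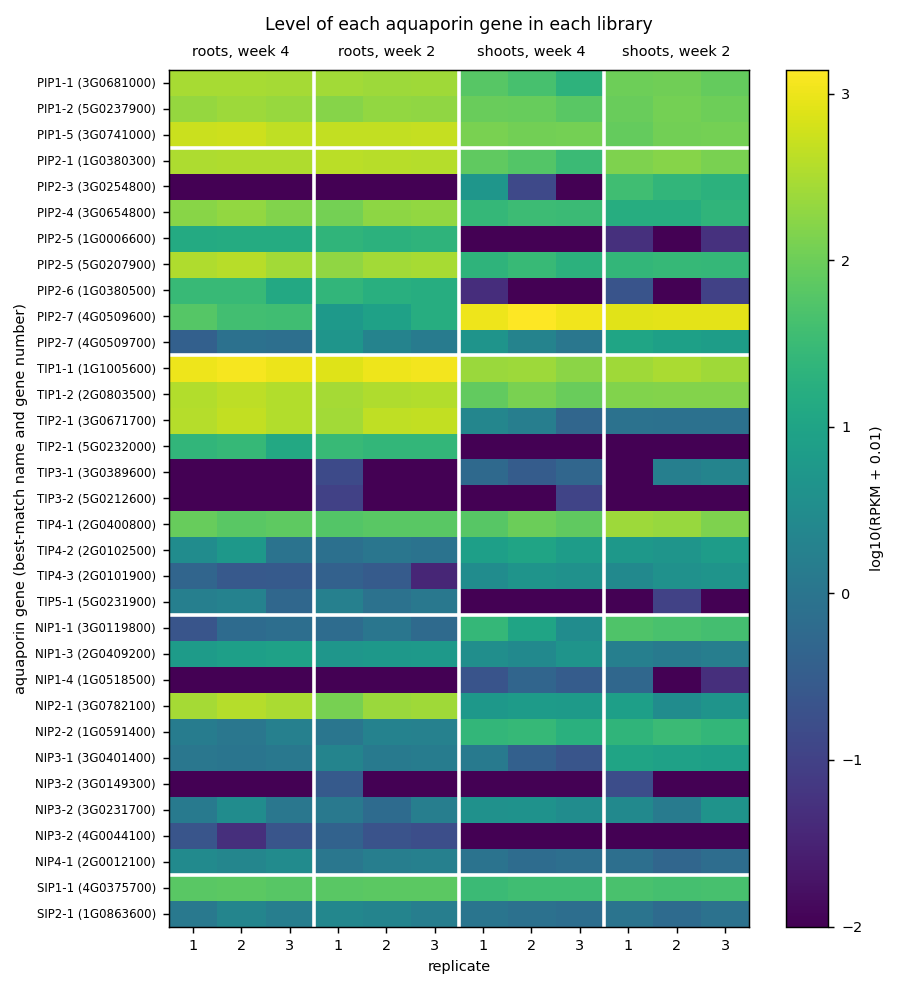
Level of each of the 33 aquaporin genes (rows, grouped by subfamily) in each of the 12 libraries (columns), coloured by log10(RPKM + 0.01), so that the darkest colour is no count. Most PIP genes are brighter in roots, as are the TIP1, TIP2 and TIP5 genes, and PIP2-7 (4G0509600), PIP2-3, NIP1-1 and NIP2-2 are brighter in shoots.

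The contrast of roots with shoots asks which aquaporins each organ uses. At week 4, 25 of 29 tested aquaporins were called, 18 higher and 7 lower in roots, where 60.9% of all tested genes were called, 32.4% higher and 28.5% lower. At week 2 all 29 tested aquaporins were called, 18 higher and 11 lower in roots, where 56.1% of all tested genes were called, 28.4% higher and 27.7% lower. The median log2 fold change of the 29 was 1.46 at week 4 and 1.16 at week 2, against 0.04 and 0.01 over all tested genes. The same 18 genes were higher in roots at both weeks, 7 were lower at both, 4 were called at week 2 alone (PIP2-3, TIP4-1, NIP3-1 and NIP3-2), and none was called in opposite directions. The libraries of the organs did not overlap for 26 of the 29 at week 4, where this held for 67.0% of all tested genes, and for 27 at week 2, where it held for 65.0%. Of the 29, 6 had under 10 counts in every library of an organ and so passed the filter through the other organ alone. The low organ was shoots for the PIP2-5 gene on chromosome 1, PIP2-6, the TIP2-1 gene on chromosome 5 and TIP5-1. It was roots for PIP2-3 and TIP3-1. The organ calls of these genes depend in part on that filter and are given as description. Scaling the libraries within each organ moved the fold changes by 0.34 at week 4 and 0.36 at week 2 (log2) toward roots, with 24 and 28 genes called.

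**Figure D3:**
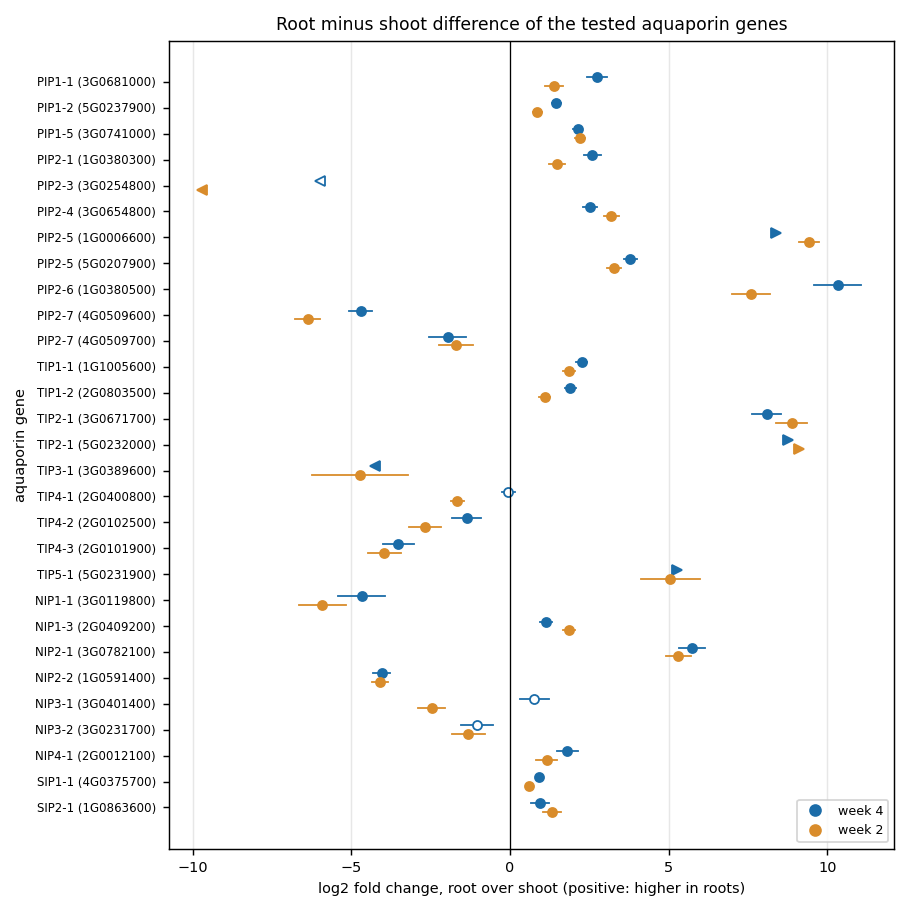
Log2 fold change of roots over shoots for the 29 tested aquaporin genes at week 4 (blue) and week 2 (orange), with bars of 1 SE. Filled symbols are called by the edgeR test, and triangles mark a lower bound where an organ had no count. PIP1, TIP1, TIP2 and SIP genes lie right of 0, while PIP2-7, TIP4-2, TIP4-3, NIP1-1 and NIP2-2 lie left of it.

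All 3 PIP1 genes were higher in roots at both weeks. PIP1-5 (BdiBd21-3.3G0741000, chromosome 3, positions 56047992 to 56049708) had 537, 579 and 445 RPKM in week 4 roots and 465, 475 and 500.3 RPKM in week 2 roots. In shoots it had 127, 110.0 and 119.9 RPKM at week 4 and 85.4, 109.9 and 118 RPKM at week 2. Every root library stood above every shoot library. The log2 fold change was 2.13 (SE 0.14, edgeR adjusted p = 2.03e-07) at week 4 and 2.2 (SE 0.15, edgeR adjusted p = 1.2e-07) at week 2. PIP1-1 (BdiBd21-3.3G0681000, chromosome 3, positions 52403742 to 52406904) had 298, 294 and 284 RPKM in week 4 roots and 269.9, 244 and 253 RPKM in week 2 roots, against 65.1, 44.4 and 21.6 RPKM in week 4 shoots and 104, 106 and 85.4 RPKM in week 2 shoots. Its groups did not overlap between organs, with log2 fold changes of 2.74 (SE 0.31, edgeR adjusted p = 1.56e-05) at week 4 and 1.38 (SE 0.29, edgeR adjusted p = 0.0019) at week 2. The gene model overlaps 578 bases of a gene on the opposite strand that held 3170 counts in all against 72105 for PIP1-1, and the strand setting of the counting was not given in the sources used here. PIP1-2 (BdiBd21-3.5G0237900) averaged 229 ± 14.0 RPKM in week 4 roots and 188 ± 25.0 RPKM in week 2 roots, against 83.0 ± 14.2 RPKM in week 4 shoots and 103 ± 12.2 RPKM in week 2 shoots (SD, n = 3 each).

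The PIP2 genes split by organ. PIP2-1, PIP2-4, PIP2-6 and both PIP2-5 genes were higher in roots at both weeks, both PIP2-7 genes were lower in roots at both weeks, and PIP2-3 was lower in roots at week 2. PIP2-1 (BdiBd21-3.1G0380300, chromosome 1, positions 24385670 to 24390406) had 329, 339 and 346 RPKM in week 4 roots and 401, 398 and 379 RPKM in week 2 roots. Its shoot values were 78.6, 58.0 and 31.5 RPKM at week 4 and 139, 159 and 129 RPKM at week 2. The organs did not overlap, and the log2 fold change was 2.59 (SE 0.26, edgeR adjusted p = 4.28e-06) at week 4 and 1.47 (SE 0.25, edgeR adjusted p = 0.000338) at week 2. The PIP2-5 gene on chromosome 5 (BdiBd21-3.5G0207900) averaged 333 ± 63.5 RPKM in week 4 roots against 24.1 ± 4.50 RPKM in week 4 shoots, and 253 ± 55.2 RPKM in week 2 roots against 26.3 ± 1.52 RPKM in week 2 shoots. PIP2-4 (BdiBd21-3.3G0654800) averaged 175 ± 28.4 RPKM in week 4 roots against 30.8 ± 3.79 RPKM in week 4 shoots, and 169 ± 45.6 RPKM in week 2 roots against 18.5 ± 3.97 RPKM in week 2 shoots.

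Expression of a further pair of PIP2 genes was close to nil in shoots. The PIP2-5 gene on chromosome 1 (BdiBd21-3.1G0006600) had 14.0, 14.5 and 14.6 RPKM in week 4 roots and 23.5, 20.5 and 22.1 RPKM in week 2 roots. It had 0 counts in week 4 shoots and 2 counts in week 2 shoots, against 1297 and 1827 counts in the roots of those weeks. With 3 counts over the group as the floor, the week 4 level in roots was at least 337-fold higher, and at week 2 the ratio was 798 with a 95% exact counting interval of 220.5 to 6591. PIP2-6 (BdiBd21-3.1G0380500), which lies 23496 bases from PIP2-1 on chromosome 1 with 1 gene between, had 29.7, 29.6 and 12.8 RPKM in week 4 roots and 24.8, 17.4 and 16.1 RPKM in week 2 roots. Its shoot counts were 1 at week 4, from replicate 1, and 7 at week 2, against 2209 and 1634 in roots, and the ratio at week 4 had a counting interval of 308 to 67951. Intervals and floors cover counting error only.

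The most abundant shoot aquaporin was the PIP2-7 gene BdiBd21-3.4G0509600 (chromosome 4, positions 41990442 to 41992066). It had 61.7, 37.9 and 36.2 RPKM in week 4 roots and 5.75, 8.85 and 16.1 RPKM in week 2 roots. In shoots it had 1056, 1394 and 1104 RPKM at week 4 and 819, 847 and 857 RPKM at week 2. The organs did not overlap, with log2 fold changes of -4.71 (SE 0.36, edgeR adjusted p = 7.22e-07) at week 4 and -6.37 (SE 0.39, edgeR adjusted p = 1.07e-07) at week 2. Its root level was 3.82% of its shoot level at week 4 and 1.22% at week 2, and the green tissue genes stood at 10.0% and 2.83% in the same groups. How far green tissue among the root samples contributed to the root level was not tested.

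A gene with the same best match, BdiBd21-3.4G0509700, starts 1341 bases past the end of that PIP2-7 gene on the same strand with no gene between. It had 0.375, 0.807 and 0.761 RPKM in week 4 roots and 4.72, 1.99 and 1.38 RPKM in week 2 roots, against 4.49, 2.03 and 1.11 RPKM in week 4 shoots and 10.7, 8.45 and 7.37 RPKM in week 2 shoots. The organs did not overlap at either week, and the log2 fold changes were -1.97 (SE 0.58, edgeR adjusted p = 0.0121) at week 4 and -1.71 (SE 0.53, edgeR adjusted p = 0.017) at week 2. The week 4 call was lost without week 4 shoot replicate 1 (log2 -1.31, edgeR adjusted p = 0.0565), and the week 2 call did not hold once week 2 root replicate 2 or 3 was omitted (edgeR adjusted p = 0.0659 and 0.0605). Without week 2 root replicate 1 the week 2 value was -2.38 (edgeR adjusted p = 0.0032). How reads matching both neighbours were counted was not given in the sources used here.

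PIP2-3 (BdiBd21-3.3G0254800, chromosome 3, positions 17147703 to 17149045) had no count in any of the 6 root libraries. The shoot libraries had 5.01, 0.127 and 0 RPKM at week 4 and 37.4, 24.0 and 20.4 RPKM at week 2. It was at least 841-fold lower in roots at week 2, for a gene that passed the filter through shoots alone. At week 4 the bound was 63.4-fold, from 148 shoot counts of which replicate 1 held 145, and the gene was not called (edgeR adjusted p = 0.0598). Without that library the week 4 shoot counts are at the floor of 3, so no fold is given. It was called at week 4 without shoot replicate 2 or 3 (edgeR adjusted p = 0.047 and 0.0347) and by DESeq2 (adjusted p = 0.0112).

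Of 9 tested TIP genes, 5 were higher in roots at both weeks, 3 were lower in roots at both weeks, and TIP4-1 was lower at week 2 alone. Of all tested genes 32.4% were higher and 28.5% lower in roots at week 4, and 28.4% and 27.7% at week 2. TIP1-1 (BdiBd21-3.1G1005600, chromosome 1, positions 72845339 to 72847749), best matched to a vacuolar water channel of maize, had the highest level of any aquaporin in roots. It had 1018, 1165 and 1008 RPKM in week 4 roots and 781, 1038 and 1133 RPKM in week 2 roots, against 237, 251 and 179.5 RPKM in week 4 shoots and 255, 306.5 and 253 RPKM in week 2 shoots. Every root value exceeded every shoot value, with log2 fold changes of 2.26 (SE 0.18, edgeR adjusted p = 7.46e-07) at week 4 and 1.86 (SE 0.18, edgeR adjusted p = 3.34e-06) at week 2. TIP1-2 (BdiBd21-3.2G0803500, chromosome 2, positions 58664348 to 58665744) had 348, 435.5 and 361 RPKM in week 4 roots and 280.3, 335 and 362 RPKM in week 2 roots, against 82.4, 129.8 and 94.8 RPKM in week 4 shoots and 147, 158 and 154 RPKM in week 2 shoots. It too did not overlap between organs, with log2 fold changes of 1.9 (SE 0.17, edgeR adjusted p = 1.68e-06) and 1.09 (SE 0.17, edgeR adjusted p = 0.000141) at week 4 and week 2.

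Larger organ differences were seen for TIP2-1 and TIP5-1. TIP2-1 of Arabidopsis conducts ammonia as well as water, and TIP5-1 of Arabidopsis is known from pollen. The TIP2-1 gene on chromosome 3 (BdiBd21-3.3G0671700) had 365.5, 474 and 358 RPKM in week 4 roots and 267, 445 and 471 RPKM in week 2 roots. In shoots it had 2.33, 1.55 and 0.494 RPKM at week 4 and 0.865, 0.833 and 0.811 RPKM at week 2. The log2 fold change was 8.08 (SE 0.46, edgeR adjusted p = 1.29e-07) at week 4 and 8.87 (SE 0.49, edgeR adjusted p = 6.47e-08) at week 2.

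The TIP2-1 gene on chromosome 5 (BdiBd21-3.5G0232000, positions 21238037 to 21239231) had 24.4, 27.5 and 12.5 RPKM in week 4 roots and 28.9, 25.3 and 25.9 RPKM in week 2 roots. It had no count in any shoot library. Week 4 roots were thus at least 429-fold higher and week 2 roots at least 546-fold higher, for a gene that passed the filter through roots alone. The TIP5-1 gene (BdiBd21-3.5G0231900) abuts it, with no base between the models, and its counts summed to 149 over week 4 roots and 124 over week 2 roots, against 0 over week 4 shoots and 3 over week 2 shoots. Both neighbours were called higher in roots at both weeks. How reads across the border of these models were assigned was not given in the sources used here. Whether the TIP5-1 counts include reads of its neighbour was not tested.

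The TIP genes lower in roots were TIP3-1, TIP4-2 and TIP4-3. TIP3 proteins are known from the vacuoles of seeds in Arabidopsis. TIP3-1 (BdiBd21-3.3G0389600) had no count in week 4 roots and 0.133, 0 and 0 RPKM in week 2 roots, against 0.563, 0.311 and 0.482 RPKM in week 4 shoots and 0, 1.66 and 2.12 RPKM in week 2 shoots. It was at least 18.8-fold lower in week 4 roots (edgeR adjusted p = 0.0263), a call lost without any 1 of the 3 week 4 root libraries (edgeR adjusted p = 0.0545 to 0.0591) and by limma-voom (0.0553). The groups overlapped at week 2, with a log2 fold change of -4.73 (SE 1.5, edgeR adjusted p = 0.0237) that was lost without replicate 2 or 3 of either organ (edgeR adjusted p = 0.0567 to 0.0779), by limma-voom (0.179) and by DESeq2 (0.0666), while the fitted value was -8.5 without root replicate 1 (edgeR adjusted p = 0.0319) and -5.34 without shoot replicate 1 (edgeR adjusted p = 0.00119).

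TIP4-2 and TIP4-3 lie 17261 bases apart on chromosome 2. TIP4-2 (BdiBd21-3.2G0102500) had 3.21, 5.64 and 0.907 RPKM in week 4 roots and 0.768, 1.04 and 0.890 RPKM in week 2 roots. Shoot values were 7.9, 10.3 and 7.02 RPKM at week 4 and 5.46, 4.86 and 6.97 RPKM at week 2. Its log2 fold change was -1.36 (SE 0.46, edgeR adjusted p = 0.0233) at week 4 and -2.67 (SE 0.51, edgeR adjusted p = 0.000888) at week 2. The week 4 call was lost without root replicate 1 or shoot replicate 2 (edgeR adjusted p = 0.0613 and 0.0653), with TMM within each organ (0.0714) and when the compared libraries were fitted alone (0.0731), and without root replicate 2 the value was -2.02 (0.00264). TIP4-3 (BdiBd21-3.2G0101900) had 0.0251 to 0.472 RPKM over the 6 root libraries and 2.81 to 4.56 RPKM over the 6 shoot libraries, and was called lower in roots at both weeks.

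The NIP genes split between organs. NIP2-1, NIP1-3 and NIP4-1 were higher in roots at both weeks, and NIP1-1 and NIP2-2 were lower in roots at both weeks. NIP2-1 of maize and rice, also called Lsi1, is a channel for silicic acid uptake by roots, and NIP2-2 of rice, also called Lsi6, passes silicic acid in shoots. NIP2-1 (BdiBd21-3.3G0782100, chromosome 3, positions 58613855 to 58617774) had 279, 379.6 and 317 RPKM in week 4 roots and 122, 233 and 263 RPKM in week 2 roots. Levels in shoots were 5.41, 6.59 and 6.42 RPKM at week 4 and 8.06, 3.09 and 4.52 RPKM at week 2. The organs were far apart at both weeks, with log2 fold changes of 5.73 (SE 0.4, edgeR adjusted p = 5.75e-07) at week 4 and 5.3 (SE 0.4, edgeR adjusted p = 8.67e-07) at week 2.

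NIP2-2 (BdiBd21-3.1G0591400) showed the opposite order. It had 1.42, 1.09 and 1.76 RPKM in week 4 roots and 1.03, 1.9 and 1.81 RPKM in week 2 roots, against 25.2, 27.5 and 18.3 RPKM in week 4 shoots and 23.7, 31.5 and 26.1 RPKM in week 2 shoots. The log2 fold change was -4.05 (SE 0.26, edgeR adjusted p = 1.64e-07) at week 4 and -4.1 (SE 0.26, edgeR adjusted p = 1.12e-07) at week 2. No gene of the table had the keyword silicon efflux in its description, so the efflux partner of these channels was not analysed here.

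NIP1-1 (BdiBd21-3.3G0119800, chromosome 3, positions 7224047 to 7226360) had 0.215, 0.608 and 0.708 RPKM in week 4 roots and 0.650, 1.02 and 0.590 RPKM in week 2 roots. In shoots it had 26.1, 10.3 and 3.15 RPKM at week 4 and 52.3, 45.9 and 40.5 RPKM at week 2. The organs did not overlap, with log2 fold changes of -4.68 (SE 0.74, edgeR adjusted p = 0.000313) at week 4 and -5.92 (SE 0.74, edgeR adjusted p = 7.07e-05) at week 2. The week 4 value was -3.76 without week 4 shoot replicate 1 (edgeR adjusted p = 0.000187). NIP1-3 (BdiBd21-3.2G0409200) averaged 7.85 ± 1.06 RPKM in week 4 roots against 3.56 ± 0.902 RPKM in week 4 shoots, and 5.49 ± 0.423 RPKM in week 2 roots against 1.51 ± 0.197 RPKM in week 2 shoots (SD, n = 3 each).

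The remaining NIP genes were rare. NIP4-1 (BdiBd21-3.2G0012100) averaged 2.74 ± 0.407 RPKM in week 4 roots against 0.774 ± 0.132 RPKM in week 4 shoots, and 1.45 ± 0.337 RPKM in week 2 roots against 0.646 ± 0.142 RPKM in week 2 shoots, and its week 2 call was lost without week 2 shoot replicate 2 (edgeR adjusted p = 0.0534). The tested NIP3-2 gene (BdiBd21-3.3G0231700) averaged 1.82 ± 1.13 RPKM in week 4 roots against 3.79 ± 0.570 RPKM in week 4 shoots, and 1.13 ± 0.488 RPKM in week 2 roots against 2.82 ± 1.49 RPKM in week 2 shoots. It was called at week 2 (edgeR adjusted p = 0.0479), where its groups overlapped, and lost the call under 13 alternatives (adjusted p = 0.0512 to 0.341), among them leaving out root replicate 1 of either week, root replicate 2 of week 2, shoot replicate 2 of week 4, and shoot replicate 1 or 3 of week 2. At week 4 it was not called (edgeR adjusted p = 0.0864), but was without root replicate 2 (edgeR adjusted p = 0.017) and by limma-voom (adjusted p = 0.0415).

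Both SIP genes were higher in roots by modest amounts. SIP1-1 (BdiBd21-3.4G0375700, chromosome 4, positions 31932140 to 31934341) had 66.1, 68.9 and 65.7 RPKM in week 4 roots and 66.1, 69.1 and 69.4 RPKM in week 2 roots. The shoot levels were 32.8, 36.5 and 37.6 RPKM at week 4 and 46.2, 42.7 and 44.9 RPKM at week 2. Replicates were tight in every group, and the log2 fold change was 0.91 (SE 0.08, edgeR adjusted p = 1.13e-06) at week 4 and 0.61 (SE 0.08, edgeR adjusted p = 3.02e-05) at week 2. SIP2-1 (BdiBd21-3.1G0863600) had 1.17, 2.15 and 1.54 RPKM in week 4 roots and 2.36, 2.12 and 1.58 RPKM in week 2 roots, against 0.991, 0.810 and 0.714 RPKM in week 4 shoots and 0.922, 0.626 and 0.868 RPKM in week 2 shoots. Its groups did not overlap, with log2 fold changes of 0.95 (SE 0.28, edgeR adjusted p = 0.0114) and 1.33 (SE 0.28, edgeR adjusted p = 0.00163) at week 4 and week 2, and the week 4 call was lost without root replicate 2 or shoot replicate 3 (edgeR adjusted p = 0.0609 and 0.0512).

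The contrast of week 4 with week 2 asks how each organ changed with age. The 2 ages were taken from different plants at different harvests, so age and harvest cannot be told apart. In roots 4 of 29 tested aquaporins were called, 2 higher and 2 lower at week 4, where 18.7% of all tested genes were called, 12.4% higher and 6.35% lower. The 10 most abundant root aquaporins were not among them, and the median log2 fold change of the 29 was 0.11, against 0.05 over all tested genes. The ages did not overlap for 11 of the 29, where this held for 42.4% of all tested genes. The count was 1 without week 4 root replicate 1 or 2 or week 2 root replicate 1, and 2 without any other single root library. None was called when tested against a fold change of 2 with edgeR, where 3 had an unadjusted p under 0.05.

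The abundant PIP2-7 gene rose in roots, with the values given above and no overlap between ages. It averaged 45.3 ± 14.3 RPKM at week 4 and 10.2 ± 5.30 RPKM at week 2 (SD, n = 3 each), a log2 fold change of 2.15 (SE 0.33, edgeR adjusted p = 0.00208). In the same root libraries 21 of 32 tested green tissue genes were called higher at week 4. Their summed levels were 9816 to 11540 RPKM at week 4 and 1841 to 4020 RPKM at week 2. The part of green tissue in the PIP2-7 difference was not tested. The neighbouring PIP2-7 gene fell in the same roots, to 0.647 ± 0.237 RPKM at week 4 against 2.69 ± 1.78 RPKM at week 2 (log2 -2.05, SE 0.58, edgeR adjusted p = 0.0318), a call lost without any 1 of the week 4 root libraries or week 2 root replicate 1 (edgeR adjusted p = 0.0594 to 0.131) and by limma-voom (0.0594). Without week 2 root replicate 1 its value was -1.38.

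The other calls in roots were smaller or less stable. TIP4-2 averaged 3.25 ± 2.37 RPKM at week 4 and 0.899 ± 0.137 RPKM at week 2, with overlapping groups and a log2 fold change of 1.85 (SE 0.51, edgeR adjusted p = 0.0272). Omitting week 4 root replicate 1 or 2 or any 1 of the week 2 root libraries ended the call (edgeR adjusted p = 0.0668 to 0.118), as did limma-voom (log2 1.52) and a fit of the root libraries alone (0.0683), and without week 4 root replicate 2 the value was 1.19. The rise of the green tissue genes in the same libraries was not tested as a part of it. The PIP2-5 gene on chromosome 1 averaged 14.4 ± 0.324 RPKM at week 4 and 22.0 ± 1.51 RPKM at week 2, with groups that did not overlap and a log2 fold change of -0.62 (SE 0.16, edgeR adjusted p = 0.0295), and its call was lost without any 1 of the 6 root libraries (edgeR adjusted p = 0.0605 to 0.105). NIP2-1 averaged 325 ± 50.8 RPKM at week 4 and 206 ± 73.9 RPKM at week 2 without being called. NIP4-1 was not called by edgeR but was called higher at week 4 by limma-voom (log2 0.92, adjusted p = 0.0273) and by DESeq2 (adjusted p = 0.0407), and NIP1-3 was called higher by limma-voom (adjusted p = 0.0301) and by edgeR when root libraries were fitted alone (edgeR adjusted p = 0.0446).

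In shoots 10 of 29 tested aquaporins were called, 2 higher and 8 lower at week 4, where 33.9% of all tested genes were called, 14.5% higher and 19.4% lower. The median log2 fold change of the 29 was -0.29, against 0.0 over all tested genes. The ages did not overlap for 14 of the 29, where this held for 49.0% of all tested genes. Leaving out 1 library at a time gave 7 to 11 calls, and without week 4 shoot replicate 1 there were 11, 2 higher and 9 lower. Tested against a fold change of 2, 1 gene was called. The only aquaporin called with age in both organs was the neighbouring PIP2-7 gene, and 16 of the 29 were called in neither. The shares of all tested genes called in both organs or in neither were not counted.

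**Figure D4:**
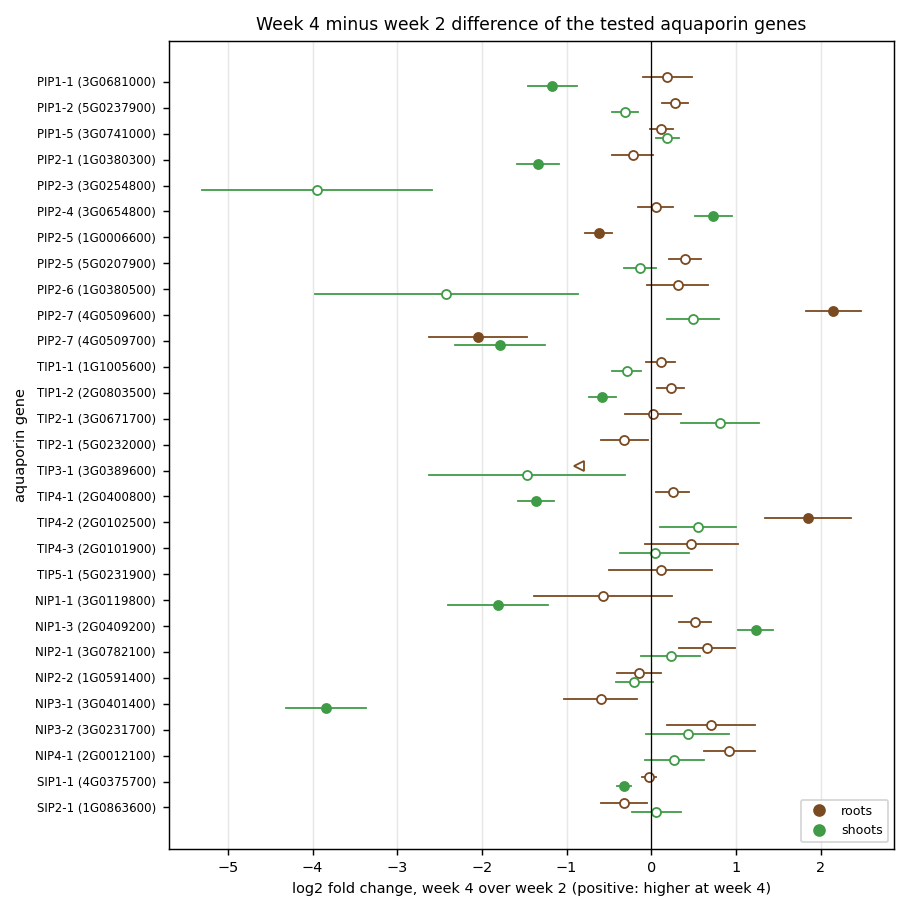
Log2 fold change of week 4 over week 2 for the tested aquaporin genes in roots (brown) and shoots (green), with bars of 1 SE. Filled symbols are called by the edgeR test, the triangle marks a bound against no count, and genes with 3 or fewer counts in both groups of an organ have no symbol there. The filled green symbols lie mostly left of 0 and NIP3-1 lies furthest left of them.

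PIP1-1 and PIP2-1 fell in shoots. PIP1-1 averaged 43.7 ± 21.8 RPKM at week 4 and 98.5 ± 11.4 RPKM at week 2 (log2 -1.17, edgeR adjusted p = 0.0107), without overlap, although the call was lost when the compared libraries were fitted alone (adjusted p = 0.075). PIP2-1 averaged 56.0 ± 23.6 RPKM at week 4 and 142 ± 15.2 RPKM at week 2 (log2 -1.34, edgeR adjusted p = 0.00214), also without overlap. Both had their highest week 4 shoot value in replicate 1 and their lowest in replicate 3, an order found in 5 of the 8 aquaporins called lower and in 43.5% of all genes called lower in week 4 shoots. PIP2-4 rose to 30.8 ± 3.79 RPKM at week 4 against 18.5 ± 3.97 RPKM at week 2 (log2 0.73, edgeR adjusted p = 0.0229), a call lost without week 4 shoot replicate 2 or 3 or week 2 shoot replicate 1 or 2 (edgeR adjusted p = 0.0708 to 0.0948). PIP2-3 had 148 counts at week 4 and 2203 at week 2 and was not called, but was without week 4 shoot replicate 1 (edgeR adjusted p = 0.000249) and by limma-voom (0.00154). The neighbouring PIP2-7 gene fell to 2.54 ± 1.75 RPKM at week 4 against 8.83 ± 1.69 RPKM at week 2 (log2 -1.79, edgeR adjusted p = 0.0246), a call lost without week 4 shoot replicate 2 or 3 or week 2 shoot replicate 1 or 2 (edgeR adjusted p = 0.0505 to 0.0783), and its value was -2.53 without week 4 shoot replicate 1 (edgeR adjusted p = 0.00453).

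Among vacuolar channels TIP4-1 and TIP1-2 fell in shoots. TIP4-1 (BdiBd21-3.2G0400800, chromosome 2, positions 31293105 to 31294948) had 63.2, 97.0 and 76.9 RPKM at week 4 and 244.5, 223 and 143 RPKM at week 2. The ages did not overlap, with a log2 fold change of -1.36 (SE 0.21, edgeR adjusted p = 0.000808). In roots it had 88.6, 68.7 and 72.2 RPKM at week 4 and 58.2, 68.5 and 66.6 RPKM at week 2. Roots and shoots overlapped at week 4 (log2 -0.05, SE 0.2, edgeR adjusted p = 0.856), while at week 2 roots were lower (log2 -1.66, SE 0.21, edgeR adjusted p = 3.2e-05). TIP1-2 averaged 102 ± 24.6 RPKM at week 4 and 153 ± 5.65 RPKM at week 2 in shoots (log2 -0.58, edgeR adjusted p = 0.0186), a call lost without week 4 shoot replicate 3 (edgeR adjusted p = 0.0538). Leaving out the same library brought a call for the TIP2-1 gene on chromosome 3 (log2 1.18, edgeR adjusted p = 0.0184), which otherwise had none.

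NIP3-1 showed the greatest fall of the called aquaporins in shoots. Its best match in rice is a boric acid channel. NIP3-1 (BdiBd21-3.3G0401400, chromosome 3, positions 32759460 to 32764113) had 1.25, 0.376 and 0.215 RPKM in week 4 shoots and 10.0, 8.82 and 8.12 RPKM in week 2 shoots. The ages were well separated, with a log2 fold change of -3.84 (SE 0.47, edgeR adjusted p = 0.000337), and -4.96 without week 4 shoot replicate 1 (edgeR adjusted p = 1.28e-06). In roots it had 1.09, 0.973 and 1.15 RPKM at week 4 and 2.09, 1.32 and 1.47 RPKM at week 2. Roots were lower than shoots at week 2 (log2 -2.47, SE 0.42, edgeR adjusted p = 0.000398), and the organs overlapped at week 4 (log2 0.77, SE 0.46, edgeR adjusted p = 0.168), where roots were higher without week 4 shoot replicate 1 (log2 1.81, edgeR adjusted p = 0.000523).

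Other NIP and SIP genes moved in both directions in shoots. NIP1-3 rose, with 3.46, 2.71 and 4.5 RPKM at week 4 and 1.67, 1.29 and 1.59 RPKM at week 2, and the log2 fold change was 1.23 (SE 0.21, edgeR adjusted p = 0.00129). NIP1-1 averaged 13.2 ± 11.8 RPKM at week 4 and 46.3 ± 5.91 RPKM at week 2 (log2 -1.81, edgeR adjusted p = 0.0388), and was -2.82 without week 4 shoot replicate 1. That call was lost without week 4 shoot replicate 2, any 1 of the week 2 shoot libraries, week 4 root replicate 2 or 3, or any 1 of the week 2 root libraries (edgeR adjusted p = 0.0525 to 0.107), with no low-count filter (0.0622) and in a fit of the shoot libraries alone (0.135). SIP1-1 fell to 35.6 ± 2.52 RPKM at week 4 against 44.6 ± 1.78 RPKM at week 2 (log2 -0.32, edgeR adjusted p = 0.00769).

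**Figure D5:**
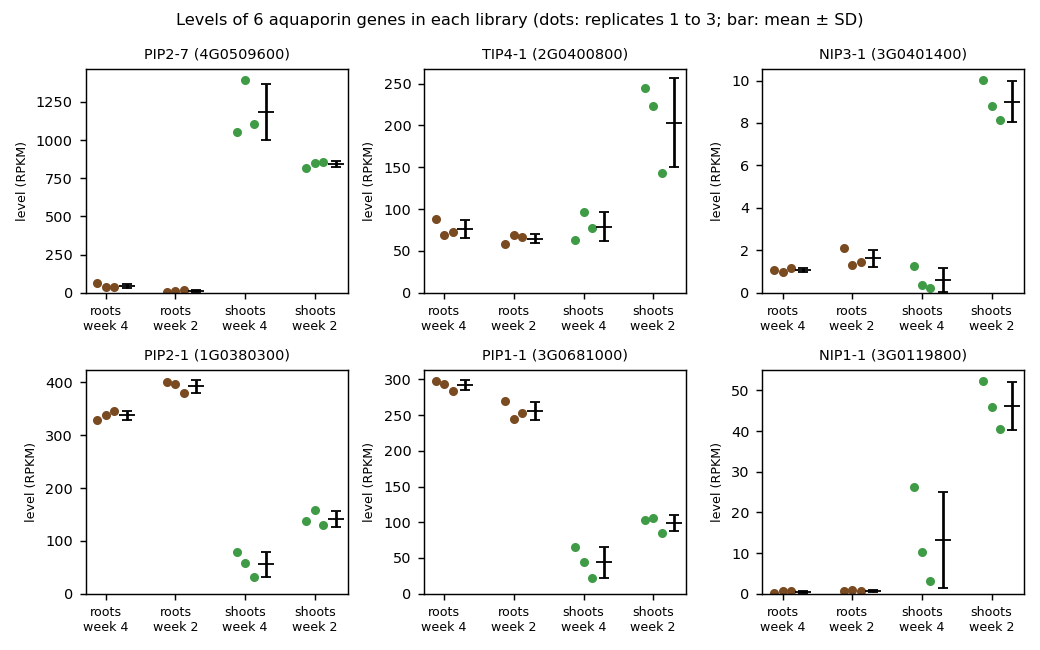
Level in RPKM of 6 aquaporin genes in each library (dots, 3 a group) with the group mean and SD (bars), from a zero baseline. PIP2-7 is high in shoots, TIP4-1 and NIP3-1 are high in week 2 shoots, and PIP2-1, PIP1-1 and NIP1-1 have spread week 4 shoot values that all lie below the week 2 values of PIP2-1, PIP1-1 and NIP1-1.

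The last comparison asks whether the change with age differed between organs, taking week 4 minus week 2 in roots less the same in shoots. It called 3 of 29 aquaporins, all higher, where 8.52% of all tested genes were called, 6.56% higher and 1.96% lower. The abundant PIP2-7 gene had a difference of 1.66 (log2, SE 0.45, edgeR adjusted p = 0.0443), since it rose in roots and in shoots averaged 1185 ± 183 RPKM at week 4 and 841 ± 19.7 RPKM at week 2, which was called when the shoot libraries were fitted alone (adjusted p = 0.0284) but not in the fit of all libraries. TIP4-1 had a difference of 1.61 (SE 0.29, edgeR adjusted p = 0.00752) and NIP3-1 a difference of 3.24 (SE 0.62, edgeR adjusted p = 0.0107), both with a fall in shoots and no call in roots. The PIP2-7 call was lost without any 1 library other than week 4 root replicate 3 or week 2 root replicate 3 (edgeR adjusted p = 0.0553 to 0.101), with upper-quartile scaling (0.0502) and with no low-count filter (0.0534). Without week 4 shoot replicate 1, PIP1-1 and PIP2-1 were also called (edgeR adjusted p = 0.00458 and 0.00711), and NIP3-1 had 4.32 (edgeR adjusted p = 4.47e-05). PIP1-1 and PIP2-1 were called without week 4 shoot replicate 3 as well (0.021 and 0.0376), TIP1-2 without week 4 shoot replicate 2 (0.0134), and TIP4-2 without week 4 root replicate 3 (0.0254), all by the edgeR test and all higher. By limma-voom PIP1-1 and TIP1-2 joined the 3 (adjusted p = 0.0366 and 0.0347), and by DESeq2 PIP1-1, TIP1-2 and PIP2-1 did (adjusted p = 0.0114, 0.0215 and 0.0172).

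Genes that work beside aquaporins were read from lists named by keyword. Plasma membrane proton pumps energize transport across the membrane in which PIPs sit, and vacuolar proton pumps do so for the membrane of TIPs. Of 30 tested vacuolar pump genes, 23 were higher and 2 lower in roots at week 4 (median log2 0.65), which is 76.7% and 6.67%, where 32.4% and 28.5% of all tested genes were. At week 2, 21 were higher and 2 lower (median 0.54), which is 70.0% and 6.67%, where 28.4% and 27.7% of all tested genes were. With age 2 rose and 2 fell in roots, so that 13.3% were called where 18.7% of all tested genes were, and none rose and 12 fell in shoots, so that 40.0% were called where 33.9% of all tested genes were. Of 8 tested plasma membrane pump genes, 2 were higher and 2 lower in roots at week 4, and 2 higher and 3 lower at week 2. The called share was 50.0% and 62.5% at week 4 and week 2, near the 60.9% and 56.1% of all tested genes. The most abundant of them, BdiBd21-3.5G0324400, averaged 718 ± 148 RPKM in week 4 roots and 689 ± 93.5 RPKM in week 2 roots, against 564 ± 54.7 RPKM in week 4 shoots and 490.0 ± 6.40 RPKM in week 2 shoots.

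Boron transporters export borate and act beside boric acid channels in rice and Arabidopsis. Of 3 such genes, none was called higher and 1 was called lower in roots at each week, where 60.9% and 56.1% of all tested genes were called at week 4 and week 2. In shoots 2 of the 3 fell with age (BdiBd21-3.4G0058900, log2 -2.17, edgeR adjusted p = 0.000784, and BdiBd21-3.2G0423900, log2 -1.21, edgeR adjusted p = 0.00287), where 19.4% of all tested genes fell. Casparian strip membrane proteins build the seal of the root endodermis. Of 3 such genes 2 were higher in roots at each week, where 32.4% and 28.4% of all tested genes were higher at week 4 and week 2. The summed levels of the 3 were 38.2 to 58.2 RPKM over the root libraries and 1.97 to 3.08 RPKM over the shoot libraries. These lists were read for their counts alone, and nothing particular to them was tested.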

How the data were processed

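The deposited table holds raw counts per gene for 12 libraries, whole numbers that the authors did not scale, with gene lengths and best-match descriptions. HISAT2 2.0.5, featureCounts 1.5.0-p3 and HTSeq 0.6.1 are named in the submitters' processing notes. The labels' protocols describe poly-T capture and give dUTP (directional) and dTTP (non-directional) synthesis as alternatives. Genome build, strand setting and the handling of multiply matching reads were not given in the sources used here. Libraries were matched to samples by organ, week and replicate number in the titles.

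Counts were fitted in R 4.3.3 with edgeR 4.0.16 (filterByExpr with a minimum count of 10, TMM, 4 group means over all 12 libraries, quasi-likelihood F test), with Benjamini-Hochberg adjustment over 26463 genes, after testing on simulated data. RPKM levels were computed from the deposited counts and lengths. DESeq2 1.42.0 and limma 3.58.1 (voom), other scalings and filters, a replicate block and the omission of each library were alternatives. Every tested aquaporin could be named; values in every library go to the 2 most abundant of each subfamily, the extremes of each comparison and all genes called in the last one, and to others chosen after their values were seen. The members and lists were chosen with earlier results of these data known. Protein and promoter sequences were not used here.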

Additional observations from a re-analysis of the deposited data

Results flagged for a closer look

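The change with age differed between organs for 3 of 29 tested aquaporins (10.3%) in the edgeR test of that difference, where 8.52% of all tested genes were called. For PIP2-7 (BdiBd21-3.4G0509600) the log2 change in roots minus that in shoots was 1.66 (SE 0.45, edgeR adjusted p = 0.0443), with a rise of 2.15 in roots. For TIP4-1 it was 1.61 (SE 0.29, edgeR adjusted p = 0.00752), with a change of -1.36 in shoots. For NIP3-1 it was 3.24 (SE 0.62, edgeR adjusted p = 0.0107), with a change of -3.84 in shoots. The PIP2-7 call was lost in 14 alternative runs, and those of TIP4-1 and NIP3-1 in 1 each. No explanation was tested.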

How the results depend on the processing

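No called fold change of an aquaporin changed sign under any alternative run. Of the recomputed values of single genes, 3146 stayed on their side of the threshold, 118 lost a call and 28 gained one. Tested against a fold change of 2, edgeR called 0 aquaporins with age in roots (3 at an unadjusted p under 0.05), 1 in shoots and 0 in the difference between organs (3 at an unadjusted p under 0.05). The difference between organs had 5 calls by limma-voom (PIP1-1 and TIP1-2 gained) and 6 by DESeq2 (PIP2-1 too). Leaving out 1 library at a time gave 23 to 26 calls for roots against shoots at week 4, 26 to 29 at week 2, 1 to 4 with age in roots, 7 to 11 with age in shoots and 2 to 4 in the difference. The cause was not tested. Calls over all tested genes were not counted for the alternatives of this paragraph.

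Correlations of deviations from the group means lay between -0.115 and 0.179 for same-numbered libraries, and between -0.159 and 0.174 for differently numbered ones. With 3 libraries a group and ranges this alike, whether replicate numbers pair the libraries cannot be told. With a replicate block 24, 27, 3, 11 and 4 of 29 aquaporins were called in the same 5 comparisons. Of the 26463 tested genes, 15781, 14445, 4205, 8511 and 1958 were called in that fit. PIP2-3 was then called lower in week 4 shoots (edgeR adjusted p = 0.0418). PIP2-7 was not called in the difference between organs (edgeR adjusted p = 0.0713), and PIP1-1 and TIP1-2 were (0.0466 and 0.03). The block ended the calls of TIP3-1 at week 4 and week 2 (0.0545 and 0.0729), of NIP3-2 at week 2 (0.0756) and of the PIP2-5 gene on chromosome 1 with age in roots (0.0567). Plain library totals in place of TMM gave summed levels for PIP1 of 1172 RPKM in week 4 roots, 1047 in week 2 roots and 277 in week 2 shoots, for PIP2 of 1048, 985 and 963 in the same groups, for TIP of 2192 in week 4 roots, for NIP of 83.9 in week 2 shoots, and for SIP of 77.1 and 79.6 in roots and 31.7 and 41.1 in shoots at week 4 and week 2. Depth limits NIP3-2, NIP4-1, TIP3-1, TIP4-3, TIP5-1 and SIP2-1, which had under 1000 counts each in all libraries.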

Other observations

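Over the 12 libraries, which share organ, week and depth, the log2 level of PIP1-1 was most like that of PIP2-1 (Pearson r = 0.99). TIP1-1 was most like the PIP2-5 gene on chromosome 5 (r = 0.993), and the abundant PIP2-7 gene was most like NIP2-2 (r = 0.945). Values as high were reached by other genes higher in roots. Among them were the PIP2-5 gene on chromosome 1 (r = 0.997) and PIP1-5 (r = 0.99), each with the TIP2-1 gene on chromosome 5. The TIP2-1 gene on chromosome 5 had no count in any shoot library, so its level varied only among roots and between organs. How much of r reflects the organ difference was not tested.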
